A study of Gallus gallus with 14 samples.

Results

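PiRNA clusters are stretches of the genome from which many PIWI-interacting RNAs (piRNAs) of 24 to 34 nt arise. The loci described here are the autosomal ones that were called in cultured chicken primordial germ cells (PGCs) and at no other stage of the series. A locus was kept when a cluster was called in at least 1 of the 2 E7PGC libraries and in none of the BC, E11G and E14G libraries. For this, clusters of all 8 small RNA libraries that shared at least 1 bp on a numbered autosome were merged. The rule left 111 loci out of 1231 autosomal loci, and out of 4034 loci in all. They made up 21.7% of the 512 autosomal loci with a call in E7PGC. The loci were selected on their calls, and so on the density of reads behind each call, in all 8 libraries. Their calls and levels are therefore a description and carry no test.

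In animals, piRNAs guide PIWI proteins of the Argonaute family to transposon transcripts and other RNAs in the germline. Long precursor transcripts from the clusters are cut into piRNAs, which commonly start with a uridine (the 1T signature). Secondary piRNAs made by slicing of a target, in the ping-pong cycle, commonly carry an adenine at position 10 (the 10A signature). PGCs are the embryonic founders of the germline, which in the chicken reach the gonads through the blood and become gonocytes there.

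The E7PGC libraries came from Arbor Acres broilers, from male PGCs of E7 gonads that had been grown in culture for weeks. E11G and E14G were pooled left gonads labelled male, the first library of each from Cobb 500 broilers on an Illumina MiSeq and the second from Leghorn layers on a Solexa platform. BC were pooled blastodermal cells of unincubated Leghorn eggs, also on the Solexa platform. All small RNA was oxidized with periodate, which removes RNAs without a modified 3′ end. Gonads hold many somatic cells beside germ cells, while the culture selects PGCs, so developmental stage, breed, culture and cell composition cannot be told apart between E7PGC and the others. RNA-seq of E14G, E11G and BC, 2 libraries each, came from JA57 broilers, with no PGC library among them. The 2 small RNA libraries of each gonad stage thus differ in breed and platform. For E7PGC, BC and the RNA-seq, nothing says whether the 2 libraries came from separate cultures or pools, so p-values measure only a spread that may be technical.

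The cluster lists give matches to short motifs of transcription factors within each cluster, and these are the only bases of the loci in the deposited files. A-MYB (MYBL1) is shown because in mouse and chicken testes it drives the transcription of piRNA precursors. The 10-base A-MYB matches within the PGC-only loci had 3 spellings, given here on the strand that reads CAGTTG, the Myb core in capitals:
A-MYB spelling 1: agaCAGTTGg
A-MYB spelling 2: aggCAGTTGg
A-MYB spelling 3: tggCAGTTGg
The first spelling occurred at 7 places, the second at 5 and the third at 3, both strands counted. These 15 places lay in 13 of the 111 loci, or 11.7%. The longest locus held 3 of them, all of the second spelling, and each of the other 12 loci held 1. The second motif for the same factor in the lists, Mybl1_1, occurred 2 times in the E7PGC 1 clusters and 3 times in the E7PGC 2 clusters of the loci:
Mybl1_1 match: aaCCGTTa

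A match is a description of letters and not a binding site. The other PGC loci are split into those also called in gonads but not in BC (shared with gonads) and those also called in BC (shared with BC). The latter count whether or not they were called in gonads too. In E7PGC 1, 13.4% of the PGC-only clusters held an A-MYB match, against 10.4% of clusters shared with gonads and 5.33% of those shared with BC. In E7PGC 2 the shares were 8.62% for PGC-only clusters, 10.4% for those shared with gonads and 6.80% for those shared with BC. Per 100 kb of cluster, PGC-only loci held 2.37 A-MYB matches in E7PGC 1 and 1.72 in E7PGC 2. Loci shared with gonads held 1.25 and 1.27 per 100 kb, and loci shared with BC 0.645 and 0.846. The E7PGC 1 values of 13.4% and 2.37 rest in part on 5 neighbouring loci of chromosome 20 described further on, each with 1 match. Without them 7.79% of the PGC-only clusters in E7PGC 1 held a match, below the 10.4% of clusters shared with gonads. The PGC-only loci then held 8 matches in E7PGC 1, or 1.53 per 100 kb. Of these, 3 lay in the longest locus, and the value without that locus too was not computed. Matches to the 2 RFX4 motifs were more common. RFX4_1 was most common in loci shared with gonads. Per 100 kb it reached 4.19 and 3.43 in PGC-only clusters. Clusters shared with gonads held 5.12 and 5.40, and those shared with BC 3.15 and 2.77. The share of clusters with an RFX4_1 match was 25.6% and 15.5% for PGC-only clusters. It was 32.9% and 34.1% for clusters shared with gonads, and 20.7% and 17.0% for those shared with BC. PGC-only clusters were thus the lowest by share in E7PGC 2. The chromosome 20 loci also hold RFX4_1 matches, and values without them were not computed for this motif. Per 100 kb, RFX4_2 ran in the same order of classes as A-MYB, with 4.37 and 5.49 in PGC-only clusters. Clusters shared with gonads held 4.36 and 4.43, and those shared with BC 3.30 and 2.92. By the share of clusters with an RFX4_2 match, PGC-only clusters lay between the other classes, at 25.6% and 25.9%. That share was 29.4% and 31.3% for clusters shared with gonads, and 16.7% and 13.6% for those shared with BC.

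Most of the loci were called in a single E7PGC library. Of the 111 loci, 54 were called in E7PGC 1 only, 29 in E7PGC 2 only and 28 (25.2%) in both. Of the PGC loci also called in gonads but not in BC, 151 of 246 (61.4%) were called in both E7PGC libraries, and of those also called in BC 131 of 155 (84.5%). Part of the gap may be built in by the merging. In the shared classes a gonad or BC cluster can join clusters of the 2 E7PGC libraries that do not overlap each other. In PGC-only loci they must overlap directly. How much this adds was not tested. The gap was present on both sides of a single cut at 13.3 RPM per kb. Densities on each side of the cut were not matched between the classes, so the part of density in the gap was not tested. Among loci that lay below 13.3 RPM per kb in E7PGC 1, 17 of 55 PGC-only loci (30.9%) were also called in E7PGC 2, against 27 of 66 loci (40.9%) shared with gonads and 26 of 34 (76.5%) shared with BC. Among loci below that density in E7PGC 2, 15 of 34 PGC-only loci (44.1%) were also called in E7PGC 1, against 48 of 57 (84.2%) shared with gonads and 29 of 38 (76.3%) shared with BC. At or above that density in E7PGC 1, 40.7% of PGC-only loci were also called in E7PGC 2, against 77.5% of loci shared with gonads and 96.3% of those shared with BC. At or above it in E7PGC 2, 56.5% of PGC-only loci were also called in E7PGC 1, against 90.4% shared with gonads and 97.1% shared with BC. The gap to loci shared with gonads was narrowest among loci of low density in E7PGC 1. The E7PGC lists rested on 10786087 and 7925928 reads, the gonad lists on 1394576 to 8869224 and the BC lists on 6336239 and 6381706.

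The level of a cluster is its sum of normalized hits, which are reads divided by the number of genomic places they fit, scaled to the read total of the library (RPM). PGC-only loci summed to 8028 RPM in E7PGC 1 and 5273 RPM in E7PGC 2, a mean of 6650.5 ± 1948 RPM (SD, n = 2). This was 5.03% and 4.23% of the reads in autosomal clusters of these libraries. PGC loci shared with gonads held 57.4% and 52.5% of them, and those shared with BC 37.5% and 43.3%. The median PGC-only locus stood at 62.9 RPM in E7PGC 1, with a range of 43.8 to 859 RPM, and at 60.7 RPM in E7PGC 2, with a range of 40.3 to 855 RPM. Loci called in both libraries had median levels of 71.7 RPM in E7PGC 1 and 73.5 RPM in E7PGC 2, against 56.5 and 49.0 RPM for those called in 1 only. The ranges of these groups overlapped widely.

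**Figure D1:**
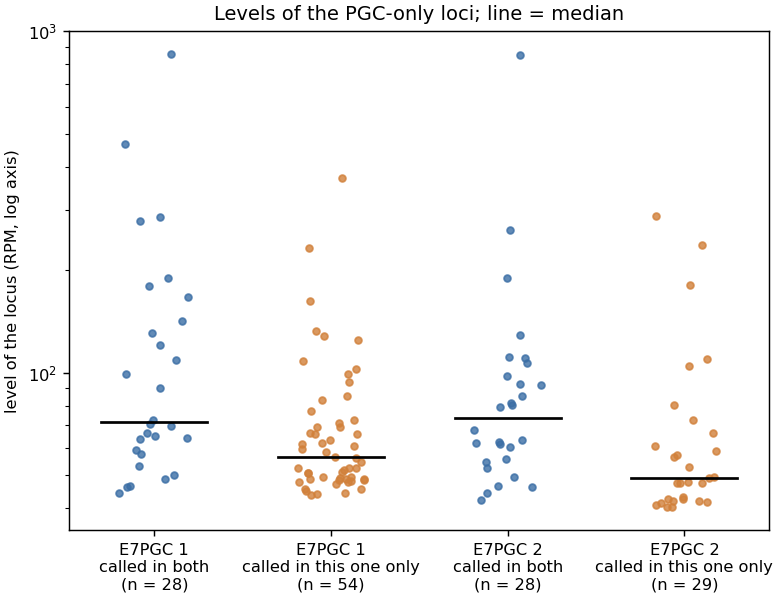
Level of each PGC-only locus (RPM, log axis) in E7PGC 1 and E7PGC 2, split into loci called in both libraries (28) and in that library only (54 and 29); each point is a locus and lines are medians. Most points lie between 40 and 100 RPM in all columns, and the highest locus stands near 859 RPM in both libraries.

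The PGC-only loci were of lower density than the other PGC loci. Each list has its own lowest significant hit density, and these thresholds were 8.71 and 7.95 RPM per kb in E7PGC 1 and 2, 11.2 to 13.3 RPM per kb in the 4 gonad lists and 2.21 and 2.32 RPM per kb in the BC lists. The median density of PGC-only clusters was 11.7 RPM per kb in E7PGC 1 and 12.1 in E7PGC 2. For clusters of loci shared with gonads it was 18.6 and 16.2, and for those shared with BC 23.5 and 19.2 RPM per kb. Taking the denser of the 2 libraries, 42 of the 111 loci stayed below the lowest gonad threshold and 69 below the highest. The other 42 loci (37.8%) reached the highest threshold, and 8 reached it in both libraries. Of the other 401 PGC loci, 291 (72.6%) reached it. All 111 loci were above both BC thresholds. A threshold applies to windows, so clusters may average less than it, as 11 PGC-only clusters did in E7PGC 1. Whether the loci made fewer piRNAs in gonads or BC was not tested, since the lists give no value outside a called cluster.

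The share of PGC-only loci among PGC loci fell with density. In E7PGC 1 they made up 37.2% of the least dense of 4 equal groups of loci, 24.8% of the second, 8.93% of the third and 1.77% of the densest. In E7PGC 2 the shares were 23.7%, 18.3%, 13.0% and 6.45%. Just outside the rule lay 57 PGC loci with a call in exactly 1 of the 6 other libraries, of which 29 owed it to E14G 1, 13 to E11G 2, 6 to E14G 2, 5 to E11G 1, 3 to BC 1 and 1 to BC 2. Their median density in the denser E7PGC library was 14.9 RPM per kb, beside 11.9 for the PGC-only loci. Nearest to the highest threshold on its upper side was the locus chr8:9577142-9580309, with 13.3 RPM per kb in its only library, and on its lower side the locus chr1:4168659-4178458, with 13.2.

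**Figure D2:**
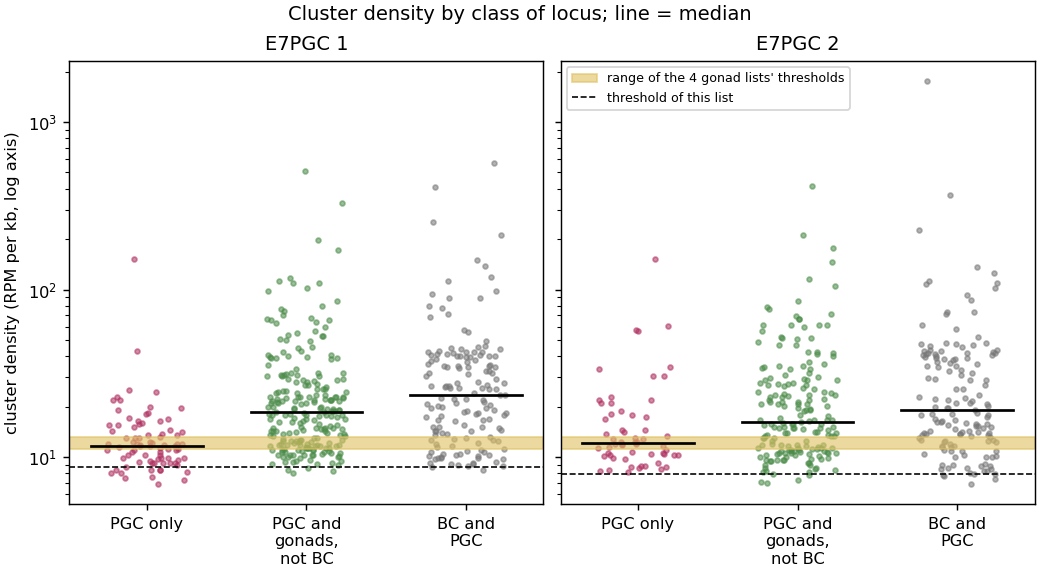
Density of every autosomal cluster in E7PGC 1 (left) and E7PGC 2 (right) in RPM per kb on a log axis, by class of locus, with medians as lines, the threshold of the list dashed and the range of the 4 gonad thresholds (11.2 to 13.3) shaded. PGC-only clusters crowd around the shaded range in both libraries, with medians of 11.7 and 12.1, and few of them lie above 30.

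The densest locus stood far from the rest. It spanned chr2:71924828-71930488 (galGal5, 5661 bp), where no transcript is listed, and had 859 RPM in E7PGC 1 and 855 RPM in E7PGC 2. These values differed by less than 1 part in 100 and made up 10.7% and 16.2% of the summed level of the class. Its density was 152 and 151 RPM per kb, and 99.9% of its hits lay on the plus strand in both libraries. Its reads carried a 1T share of 30.8% and 27.3% and a 10A share of 47.6% and 53.1%, so adenine at position 10 was the more common signature in both libraries.

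The second locus, chr1:2038129-2063759, was the longest of all with 25631 bp and held the 3 A-MYB matches of the second spelling. It had 469 RPM in E7PGC 1 and 189.8 RPM in E7PGC 2, where it was called as 2 clusters. It was mono-directional from the plus strand, with 84.9% and 81.1% of hits on that strand. Its 1T shares were 63.4% and 60.6% and its 10A shares 59.4% and 57.5%, both high together. The listed position of 2 transcripts spans it, each between 23.4 and 46.4 FPKM in all 6 RNA-seq libraries.

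Chromosome 16, a microchromosome that carries the ribosomal RNA genes and the MHC of the chicken, held 2 of the 10 highest loci, 9303 bp apart. The locus chr16:610085-618992 had 277 RPM in E7PGC 1 and 261 RPM in E7PGC 2. Its 1T share was 1.7% and 2.1%, the lowest of any PGC-only locus in both libraries. It rested on 63 and 66 hits of distinct sequences, with 47.5 and 31.4 reads per hit, against medians of 9.36 and 11.1 over the PGC-only clusters. Its neighbour chr16:583039-600781, the second longest at 17743 bp, had 189.9 and 55.7 RPM with 1T shares of 58.4% and 59.8%. The assembled transcript TCONS_00013657, listed over the first of them, stood at 38.9 and 0.882 FPKM in E14G, against 34.99 and 35.02 FPKM in E11G, and at 2.04 and 1.28 FPKM in BC. E14G 2 was low there like BC, and 87 transcripts of the table were more than 8-fold lower there than in E14G 1 at over 20 FPKM. The part of that library in the values was not tested.

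Other high loci differed between the libraries to varying degrees. The locus chr1:48432376-48446849, with no listed transcript, had 286 RPM in E7PGC 1 and 63.3 RPM in E7PGC 2, the widest ratio (4.52-fold) of the 28 loci called in both. It was a dual-strand cluster in both, with 50.4% and 63.8% of hits on the main strand. The locus chr17:6090187-6099441 had 166 and 61.7 RPM and the locus chr23:4165946-4174977 had 131 and 79.1 RPM. The locus chr22:96877-101771 had 120.3 and 110.1 RPM. The locus chr3:104918737-104926923 had 179.8 and 129 RPM, nearly all on the plus strand, with 1T shares of 84.1% and 81.1% and 10A shares of 8.5% and 11.1%. That locus therefore had the first signature almost alone, in contrast to the densest locus on chromosome 2. The locus chr3:107797348-107806862 within GATA4 was higher in E7PGC 2, with 90.4 RPM in E7PGC 1 and 111 RPM in E7PGC 2.

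The highest loci called in a single library were both on chromosome 1. The locus chr1:50772579-50787347 had 373 RPM in E7PGC 1 and was not called in E7PGC 2. The locus chr1:162812686-162817715 had 287 RPM, at 57.1 RPM per kb, in E7PGC 2 and was not called in E7PGC 1. Both levels lay above those of most loci called in both libraries. The third longest locus, chr25:958930-973857 (14928 bp), was also called in E7PGC 1 only, at 232 RPM, with 1T and 10A shares of 71.0% and 62.0%. All 4 transcripts listed over it stood at 0 FPKM in every RNA-seq library.

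**Figure D3:**
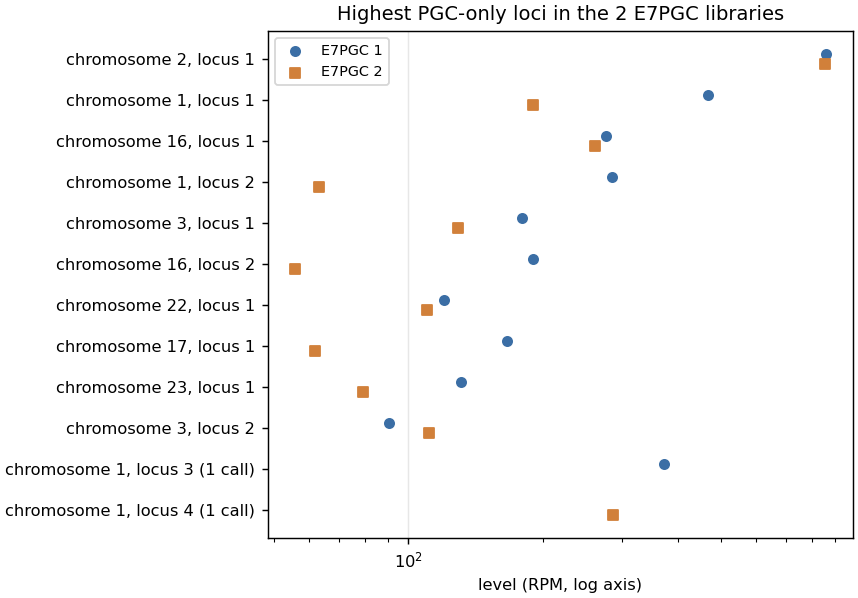
Level (RPM, log axis) of the 10 highest PGC-only loci called in both E7PGC libraries and the highest locus called in each one alone. Circles are E7PGC 1 and squares E7PGC 2. Loci of a chromosome are numbered from the top down, those called in both libraries first. The chromosome 2 locus has 859 and 855 RPM, while the second chromosome 1 locus has 286 and 63.3 RPM.

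Over the 28 loci called in both libraries, levels were ordered only loosely alike. Spearman's rho of the level between E7PGC 1 and E7PGC 2 was 0.40 over PGC-only loci, 0.89 over 151 loci shared with gonads and 0.91 over 131 shared with BC. Pearson's r of the log2 level was 0.69, 0.92 and 0.95. These describe loci that share the same 2 libraries and their depth, and the PGC-only loci span a narrow range of levels apart from the densest. The median ratio between the libraries was 1.27-fold over the PGC-only loci, and 6 of the 28 differed more than 2-fold. It was 1.42-fold over loci shared with gonads, with 22 of 151 past 2-fold, and 1.22-fold over those shared with BC, with 8 of 131. By Pearson's r, base signatures agreed more closely than levels over the PGC-only loci. It was 0.88 for the 1T share and 0.88 for the 10A share, with median differences of 6.05 and 5.80 percentage points. In the other classes the order was reversed. There r was 0.87 (shared with gonads) and 0.89 (shared with BC) for the 1T share. For the 10A share it was 0.89 and 0.90, again below the 0.92 and 0.95 of the level. The directionality call was the same at 21 of the 28 PGC-only loci (75%). At none of the 28 were the 2 libraries called mono-directional from opposite strands. Dual-strand and bidirectional calls were not compared for a turn of the main strand.

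Weighted by reads, the 1T share of PGC-only loci (reads starting with U) was 55.2% in E7PGC 1 and 52.9% in E7PGC 2, a mean of 54.1% ± 1.6 (SD, n = 2). For loci shared with gonads it was 62.5% and 63.2%, and for loci shared with BC 56.8% and 52.4%. The values of PGC-only loci and of loci shared with gonads did not overlap between the libraries, while those shared with BC did. With each cluster counted once, the medians were 59.8% and 59.6% for PGC-only clusters, against 61.6% and 61.3% for clusters shared with gonads and 65.4% and 66.7% for those shared with BC. The gap to the gonad-shared loci was thus narrower by median than by weight. Weighted 1T shares were 50.0% and 45.1% for loci called in both libraries, and 60.4% and 64.4% for loci called in 1. The medians were 57.9% and 57.9% for the former, and 60.05% and 61.7% for the latter. The former include the chromosome 2 locus, with 21.5% and 27.2% of their summed level and 1T shares of 30.8% and 27.3%. They also include chr16:610085-618992, with 277 and 261 RPM and 1T shares of 1.7% and 2.1%. The weighted share without these loci was not computed. The weighted gaps therefore cannot be read as a trait of most PGC-only loci. The weighted 10A share was 42.0% and 46.2% in PGC-only loci, a mean of 44.1% ± 3.0. It was 45.6% and 44.3% in loci shared with gonads, within that spread, and 51.3% and 49.4% in loci shared with BC, above both values. With each cluster counted once, the 10A medians were 38.45% and 42.5% for PGC-only clusters. They were 42.6% and 44.25% for clusters shared with gonads, and 49.75% and 49.5% for those shared with BC. By median, PGC-only clusters were thus the lowest of the classes in both libraries. With 2 libraries no exact test can reach 0.05, so these are values side by side.

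Single loci spread far around these averages. The 1T share ran from 1.7% to 97.8% in E7PGC 1 and from 2.1% to 93.2% in E7PGC 2, and the 10A share from 2.4% to 92.8% and from 3.8% to 94.2%. The 1T share exceeded the 10A share at 69 of 82 loci in E7PGC 1 and at 46 of 57 in E7PGC 2. At 16 and 12 loci at least 75% of the reads started with U, while at 6 and 4 loci fewer than 25% did. Among the latter, chr1:152488821-152492488 had 1T shares of 20.8% and 11.5% with 10A shares of 86.5% and 80.9%, and was read from the minus strand in both libraries. The locus chr2:136232173-136237009 was its opposite, with 1T shares of 84.3% and 84.8% and 10A shares of 2.4% and 3.8%, from the plus strand.

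**Figure D4:**
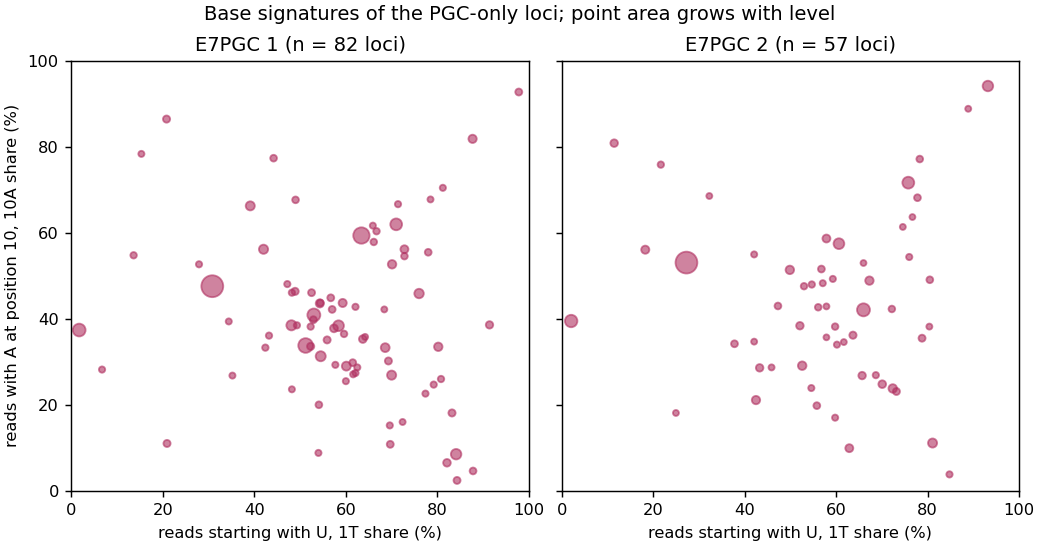
Share of reads starting with U (x axis, %) against the share with A at position 10 (y axis, %) for each PGC-only locus in E7PGC 1 (82 loci) and E7PGC 2 (57 loci), with point area growing with the level. Most loci sit at 1T shares of 40 to 80%, the large point left of the centre is the chromosome 2 locus (30.8% and 27.3%), and the point at the left edge is the chromosome 16 locus (1.7% and 2.1%).

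Most PGC-only clusters were read from one strand. Of the clusters, 68.3% in E7PGC 1 and 62.1% in E7PGC 2 were called mono-directional, 23.2% and 24.1% dual-strand and 8.54% and 13.8% bidirectional. Clusters of loci shared with gonads were mono-directional in 64.1% and 53.3% and dual-strand in 28.6% and 33.0%, and those shared with BC mono-directional in 69.3% and 71.4% and dual-strand in 24.7% and 21.1%. Bidirectional clusters made up 7.36% and 13.7% of those shared with gonads and 6% and 7.48% of those shared with BC. The mono-directional share of PGC-only clusters lay between those of the other classes in both libraries. Their dual-strand share was below both in E7PGC 1 and between them in E7PGC 2, and their bidirectional share was the highest of the 3 classes in both, with almost no margin over loci shared with gonads in E7PGC 2. These differences were not tested. PGC-only loci were shorter, with a median of 5258 bp (3000 to 25631 bp) against 8829 bp for the other PGC loci. Part of this is built in, since merging calls of more libraries lengthens a locus. As single clusters, their median length was 5603 and 4633 bp, against 6844 and 7083 bp for those shared with gonads and 5866 and 5772 bp for those shared with BC.

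The loci lay on 26 autosomes, with 33 on chromosome 1 and 15 on chromosome 2. Chromosome 1 held 29.7% of the PGC-only loci and 36.1% of all autosomal loci. Chromosome 20 held 8 PGC-only loci among its 21 loci (38.1%), beside 9.02% over all autosomal loci, and 5 of the 8 form the run described below. Chromosomes 16, 21 and 22, with 8, 5 and 2 loci, had shares of 37.5%, 40% and 50%, while chromosomes 11 and 18 held no PGC-only locus. The smallest gap to a locus of another class was 2030 bp and the median gap 168424 bp. Within 5 kb of a locus of another class lay 9 PGC-only loci, within 10 kb 13 and within 100 kb 49.

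A run of 5 loci on chromosome 20 had nearly equal values. They lay between positions 1463398 and 1519290, within 55893 bp, and were all called in E7PGC 1 only. Their levels were 48.5, 48.5, 48.3, 49.5 and 47.8 RPM, with 210, 207, 209, 207 and 196 hits. Their 1T shares were 57.7 to 62.5% and their 10A shares 25.5 to 29.3%, and all 5 were read from the minus strand. Each held 1 A-MYB match of the first spelling (agaCAGTTGg), at offsets of 1866, 1513, 1882, 1876 and 1861 bases from the listed start. Each also held an RFX4_1 match, with the same letters in all of them, at offsets of 3199, 2857, 3226, 3193 and 3178 bases. A read that fits several copies of a sequence is shared out among them, and how many reads the 5 loci have in common was not tested. Counted without the run, there were 106 loci with 7785 RPM in E7PGC 1. Other neighbours were chr14:10210964-10214734 and chr14:10215211-10221508, 476 bp apart, and 3 loci of chromosome 27 between positions 464011 and 490937. In all, 18 loci lay within 50 kb of another PGC-only locus.

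The RNA-seq table was used to ask which transcripts lay over the loci and how they differed between gonads and BC, a measure the rule did not use. Of the 111 loci, 75 overlapped the listed position of a transcript and 55 (49.5%) that of one with at least 1 FPKM in 1 library, while 36 overlapped none. The share was not computed for the other autosomal loci, so it cannot be read as particular to the PGC-only loci. These 55 loci lay under 102 such transcripts, of which 27 carried a RefSeq identifier with a gene symbol, for 24 genes. Listed positions are often spans shared by several transcripts, up to 548919 bp long here, and 38 of the 102 transcripts were alone at their position, over 30 loci. At 8 of these 30 at least 90% of the locus lay inside the position. The table lists neither exons nor strand, so exonic, intronic and antisense overlap cannot be told apart. In E7PGC, loci over an expressed transcript had median levels of 65.3 and 64.2 RPM in libraries 1 and 2, against 62.1 and 54.8 RPM for loci over no expressed transcript, and median 1T shares of 61.6% and 61.2%, against 57.0% and 57.9%. Of them 24.4% and 16.7% were dual-strand, against 21.95% and 33.3% of the loci over no expressed transcript. These differences were not tested.

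Of the 102 transcripts, 84 (82.4%) passed the test between E11G and BC (limma on log2(FPKM + 1), adjusted p below 0.05), beside 78.3% of the 22368 transcripts tested. In E11G 53 were lower than in BC (52.0%, beside 40.4% of all) and 31 were higher (30.4%, beside 38.0% of all). The median log2 difference was -0.41, beside -0.03 over all transcripts. Between E14G and BC, 71 (69.6%) passed, beside 76.7% of all, with 47 lower (beside 39.4% of all) and 24 higher (beside 37.3%) in E14G, at a median of -0.36 beside -0.02. The 2 comparisons share the BC libraries. The shares of transcripts passing were thus near those of all transcripts, and 14 of the 102 transcripts come from the span over 1 locus on chromosome 8. The 102 transcripts were also more highly expressed, with medians of 9.74 and 9.33 FPKM in E11G, against 5.01 and 4.95 over all tested. In BC the medians were 10.3 and 10.5 FPKM, against 4.01 and 4.11. Shares among transcripts of like level were not computed. Of the transcripts alone at their position, 21 of 38 were lower and 10 higher in E11G than in BC. Over the 28 loci called in both E7PGC libraries, 10 of 25 transcripts were higher in E11G than in BC (40%, beside 38.0% of all) and 5 lower (20%, beside 40.4% of all), at a median of 0.20. Over loci called in 1 only, 21 of 77 were higher (27.3%) and 48 lower (62.3%), at a median of -0.72. The difference between these groups of loci was not tested.

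Between E14G and E11G, 5 of the 102 transcripts (4.90%) passed, beside 3.84% of all. In E14G 3 were higher (beside 1.52% of all) and 2 lower (beside 2.32%). RHOJ, which codes for a small GTPase of the Cdc42 group known from blood vessel cells, had 21.9 and 20.6 FPKM in E14G, against 10.6 and 12.3 FPKM in E11G (log2 difference 0.84, SE 0.10, adjusted p = 0.026). The call was lost without any 1 of the 4 gonad libraries, with adjusted p of 0.061 to 0.097. Its locus, chr5:53506194-53510282, lies wholly inside the listed position and was called in E7PGC 2 only, at 41.9 RPM. The other 4 were Ensembl transcripts without a symbol. Of these, ENSGALT00000078833.1 over the locus chr2:116909323-116916391 had 0.119 and 0.531 FPKM in E14G, against 3.24 and 3.22 FPKM in E11G, and had 74.0 and 80.0 FPKM in BC. The number of calls fell to 0 without E11G 1, to 0 without E11G 2 and to 1 without E14G 2, and was 6 without E14G 1.

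Of the genes named by rule, GATA4, CRISPLD1, RHOJ and GPX7 were higher in both gonad stages than in BC. GATA4, a transcription factor needed for early gonad and heart development, had 89.8 and 88.2 FPKM in E11G, against 29.5 and 29.5 FPKM in BC (log2 difference 1.56, SE 0.06, adjusted p = 2.0e-05). It had 88.8 and 91.5 FPKM in E14G. Its locus was called in both E7PGC libraries, lies wholly inside the gene's listed position and holds 1 A-MYB match of the third spelling. CRISPLD1, which codes for a secreted cysteine-rich protein, had 23.5 and 26.9 FPKM in E11G, against 1.42 and 1.59 FPKM in BC (log2 difference 3.38, adjusted p = 2.4e-05). Its locus chr2:118922925-118927060 lies inside the listed position and was called in both E7PGC libraries, at 46.1 and 46.5 RPM. RHOJ had 10.6 and 12.3 FPKM in E11G, against 0.019 and 0 FPKM in BC (log2 difference 3.62, adjusted p = 1.2e-05). GPX7, a glutathione peroxidase of the endoplasmic reticulum, had 16.6 and 17.8 FPKM in E11G, against 0.224 and 0.183 FPKM in BC. GPX7 shares its listed span of 390766 bp with LRP8, COA7, CPT2 and SCP2, so the locus inside it, chr8:24560445-24563740, cannot be placed on any of them.

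HSPA8, AGO3, TIMM44, GPR39, LRP8 and COA7 were lower in both gonad stages than in BC. HSPA8, the constitutive cytosolic Hsp70 chaperone, had 619 and 553 FPKM in E11G, against 3804 and 4413 FPKM in BC (log2 difference -2.81, SE 0.12, adjusted p = 2.7e-05), and 609 and 561 FPKM in E14G. Its locus chr24:3075501-3078500 was called in E7PGC 2 only, at 180.8 RPM and 60.3 RPM per kb. It rested on 18 hits with a 1T share of 93.2% and a 10A share of 94.2%, all on the plus strand, and 95.9% of it lies inside the listed position. Its 79.6 reads per hit were the highest of any PGC-only locus, beside a median of 11.1 over the PGC-only clusters of E7PGC 2. The shares of this locus thus rest on few sequences. AGO3, an Argonaute protein that binds microRNAs, had 26.2 and 22.6 FPKM in E11G, against 96.0 and 98.6 FPKM in BC (log2 difference -1.95, adjusted p = 3.3e-05). Only 260 bp of its locus, chr23:4165946-4174977, overlap the gene. TIMM44, a subunit of the mitochondrial protein import motor, had 16.5 and 14.9 FPKM in E11G, against 53.2 and 56.4 FPKM in BC (log2 difference -1.74). Its locus was called in E7PGC 2 only, with 32.7% of it inside the listed position. GPR39, a zinc-sensing receptor, had 5.64 and 4.47 FPKM in E11G, against 23.9 and 26.8 FPKM in BC (log2 difference -2.13). It shares its listed span of 77927 bp with another transcript. LRP8, a receptor of the LDL receptor family, had a log2 difference of -1.58, and the 3 listed COA7 transcripts had -0.80, -1.31 and -2.24.

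EDC3, an enhancer of mRNA decapping, had 12.1 and 9.63 FPKM in E11G, against 29.2 and 29.7 FPKM in BC (log2 difference -1.37). Its locus was called in E7PGC 1 only, with 23.3% of it inside the listed position. MPHOSPH8, which in human cells binds methylated histone H3 as part of a silencing complex, had 5.01 and 4.84 FPKM in E11G, against 11.3 and 11.5 FPKM in BC (log2 difference -1.06). Both were lower in gonads, and both were named with their values already known. Among the most highly expressed genes, RPL36, a protein of the large ribosomal subunit, had 1092 and 1192 FPKM in E11G, against 1284 and 1406 FPKM in BC, and did not pass (log2 difference -0.24, adjusted p = 0.085). HSPA5, the Hsp70 chaperone of the endoplasmic reticulum, had 97.7 and 76.3 FPKM in E11G, against 155 and 176 FPKM in BC (log2 difference -0.92, adjusted p = 0.0028). It had 124 and 146 FPKM in E14G and did not pass there (adjusted p = 0.14). Its locus, chr17:10075051-10080341, was called in E7PGC 1 only, at 48.8 RPM, and also overlaps RABEPK.

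**Figure D5:**
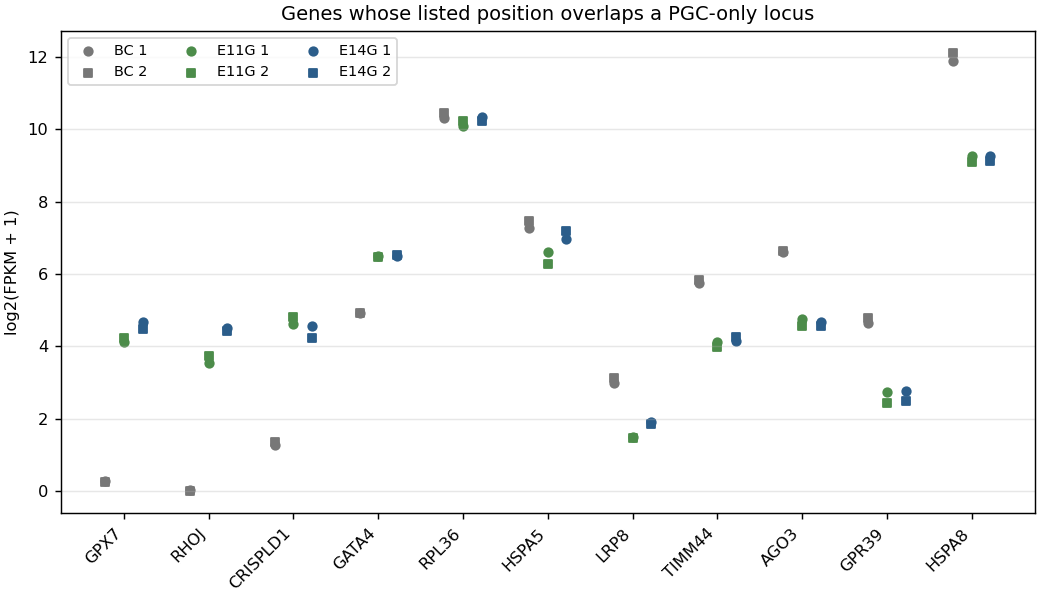
Expression, as log2(FPKM + 1), of the genes named by rule whose listed position overlaps a PGC-only locus (COA7 is left out), in BC, E11G and E14G from left to right; circles are library 1 and squares library 2. GATA4, CRISPLD1, RHOJ and GPX7 stand higher in both gonad stages than in BC, HSPA8, AGO3, TIMM44, GPR39 and LRP8 lower, and the libraries of a stage lie close together.

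Of 17 genes of the piRNA pathway, 5 were matched in the table, and 4 of them were higher in E11G and in E14G than in BC, with none lower, beside 38.0% and 37.3% of all transcripts higher. PIWIL1, the chicken PIWI protein Ciwi, had 21.8 and 13.5 FPKM in E11G, against 1.80 and 1.99 FPKM in BC (log2 difference 2.65). DDX4, the germ cell RNA helicase Vasa, had 22.6 and 17.6 FPKM in E11G, against 5.27 and 5.68 FPKM in BC, and ASZ1 and HENMT1 were higher too. TDRD7 did not pass, at 12.8 and 12.7 FPKM in E11G, against 13.2 and 14.1 FPKM in BC. Both germ cell markers, all 3 Sertoli cell markers and all 3 steroidogenic markers were higher in gonads than in BC, and both matched pluripotency markers, NANOG and POU5F3, were lower, as were 40.4% of all transcripts in E11G and 39.4% in E14G. The Sertoli markers summed to 3869 and 4761 FPKM in E11G and 3143 and 2995 FPKM in E14G, against 8.30 and 8.95 FPKM in BC. The 4 blood genes, with HBBA listed at 0 throughout, summed to 1753 and 1929 FPKM in E11G and 2263 and 2709 FPKM in E14G, against 7.88 and 7.90 FPKM in BC. Of them 3 were higher in E11G than in BC, while in E14G 2 were higher and 1 lower. The lower one was HBE, with 3.05 and 2.18 FPKM in E14G, against 5.84 and 6.18 FPKM in BC. In bulk RNA, fewer cells of a type and less RNA per cell cannot be told apart. The ovarian aromatase gene CYP19A1 had 116 FPKM in E11G 1 and 0.0137 FPKM in E11G 2. In CYP19A1 the first library thus goes against its label of male gonads. The other ovarian marker, FOXL2, was also higher in that library, with 2.45 FPKM in E11G 1 and 0.188 FPKM in E11G 2. Both values lay far below the 68.3 and 82.6 FPKM in BC. The Sertoli marker AMH had 3797 and 4696 FPKM in E11G 1 and 2. The cause of the CYP19A1 value was not tested. Without E11G 1, 72 of the transcripts over PGC-only loci passed between E11G and BC, in place of 84, and without any 1 of the other E11G and BC libraries 67 to 69 passed.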

How the data were processed

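Small RNA of 8 libraries was oxidized and sequenced by the authors, who kept reads of 24 to 34 nt without mismatches to galGal5 and called clusters with an adapted proTRAC 2.0.5 (windows of 5000 bp, step 1000 bp, at least 3000 bp). The deposited lists give positions, hits divided by genomic places scaled to the read total, base shares in percent, and motif matches. Reads of ribosomal, transfer and microRNAs had been removed. Reads had been mapped with TopHat2, keeping 1 place per read, while the lists count several places per read. How reads were placed for the lists is not given in the sources used here. No value is given outside calls. RNA-seq was deposited as 1 table of FPKM made by the authors with TopHat2, Cufflinks 2.2.1 and Cuffnorm, and its depth is unknown.

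Clusters were merged at 1 bp of overlap with Python 3.11.15. Transcripts reaching 1 FPKM (22368) were compared by limma 3.58.1 in R 4.3.3 with a trend on log2(FPKM + 1), all 6 libraries in the fit, Benjamini-Hochberg over all transcripts. Differences on this scale understate those of low transcripts. The fit was tried on simulated data for E11G against BC only, with 200 of 22368 transcripts changed, far fewer than passed in the data. It recovered 79% of changes of log2 2 and 93% of changes of log2 4, and 6.01% of its calls were false. E14G against E11G was not simulated. Symbols came from RefSeq accessions (6731 of 7467 matched, GRCg7b table). Named loci were the 10 highest called in both libraries, the highest in each alone and the 3 longest. Named genes were, among those with a symbol, the 10 largest changes per comparison and the 5 highest. The loci, gene lists and rules were chosen with earlier results of these data known. The list headers of E7PGC name E6 PGCs as input, while the labels give E7. The sequence of the loci was not analysed here.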

Additional observations from a re-analysis of the deposited data

How the results depend on the processing

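The number of 111 PGC-only loci was 110 when gaps up to 1 kb were merged, 97 with gaps up to 5 kb and 113 when the overlap had to reach the larger part of the shorter cluster. It was 62 when only clusters at or above the highest density threshold counted in every library, 42 when, chosen after seeing the data, members had to reach it, and 28 with a call in both E7PGC libraries. Leaving out 1 library gave 59 (without E7PGC 1) to 143 loci (without E14G 1). Over the loci called in both E7PGC libraries, the summed level was 3570.5 RPM in place of 6650.5. Their weighted 1T share was 47.6% in place of 54.1%, and includes the loci of low 1T share on chromosomes 2 and 16. Over the same loci, 15 transcripts (10 higher, 5 lower) passed for E11G against BC, and 12 (8 and 4) for E14G against BC. Between E14G and E11G, 1 (1 and 0) passed. With each cluster counted once, the 1T share was 59.7% and the 10A share 40.5%. Without 1 E7PGC library, the median density was 11.7 to 12.2 RPM per kb, the summed level 5661 to 8028 RPM, the 1T share 53.0 to 55.2% and the 10A share 42.0 to 45.9%.

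With transcripts alone at their position, an alternative chosen after seeing the data, 30 loci in place of 55 lay over an expressed transcript, and 31 transcripts passed (10 higher, 21 lower) for E11G against BC, 27 (9 and 18) for E14G against BC and 2 (2 and 0) for E14G against E11G, since fewer transcripts enter. With only the compared groups in the fit, 0 transcripts passed between E14G and E11G (0 higher, 0 lower), and 2 of all tested, while 4155 of all had an unadjusted p below 0.05. Leaving out 1 gonad library gave 0 to 6 calls there (0 to 2 higher, 0 to 4 lower). For E11G against BC it gave 67 to 72 calls (21 to 23 higher, 44 to 49 lower), and for E14G against BC 62 to 70 (21 to 26 and 40 to 44). The ranges against BC also cover the fits without 1 BC library. A lone library left in a stage was assumed to vary like the others. RHOJ between E14G and E11G also missed the threshold with a pseudocount of 0.1 (adjusted p = 0.058), and no other named gene changed its call. The cause of these changes was not tested. No paired analysis was possible because the loci have values in E7PGC only and the RNA-seq labels carry no replicate numbers.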
